A study of Homo sapiens with 2 samples.

Results

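The replication-dependent histone genes are the many intronless copies that encode linker histone H1 and the core histones H2A, H2B, H3 and H4. They were taken as every Entrez gene in both library tables whose RefSeq symbol is H1-1 to H1-6 or begins with H2AC, H2BC, H3C or H4C and a digit, the current forms of the older HIST1, HIST2 and HIST3 names. By this rule 82 of the 40392 genes in the tables were members: 6 of class H1, 22 of H2A, 24 of H2B, 14 of H3 and 16 of H4. Of these 70 are annotated as protein-coding and 12 as pseudogenes. Chromosome 6, the HIST1 locus, holds 64 members, chromosome 1, with HIST2 and HIST3, holds 16, and chromosomes 12 and 21 hold 1 each.

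The 2 libraries came from KYSE30, a cell line established from a squamous cell carcinoma of the esophagus. The RHCG library was made from cells stably transfected with a vector for human RHCG, an ammonia and ammonium transporter, and the mock library from cells stably transfected with pIRES2-EGFP. The labels do not say whether the transfectants were single clones or whether both vectors share a backbone. Total RNA was depleted of ribosomal RNA before library preparation, with no selection for poly(A) tails named. Each group is a single library, so no test was possible and every difference compares these 2 libraries.

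Cells make most of these histones in S phase, when newly copied DNA has to be packed into nucleosomes. Each nucleosome holds H2A, H2B, H3 and H4 in equal number, and H1 binds the linker DNA between nucleosomes. The messages generally end in a conserved stem-loop in place of a poly(A) tail. The stem-loop-binding protein SLBP holds this stem-loop, which guides 3′ end cutting and translation, and the message is destroyed when DNA synthesis stops. Most genes lie in clusters, and many H2A and H2B genes are divergent neighbours that share the DNA between their start sites.

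The promoters carry elements by class, and 4 are shown because they hold the elements that divide the classes. Sequences are from RefSeq on GRCh38.p14, 5′ to 3′ along the gene, 250 bases before to 50 after the annotated start. Capitals mark matches on either strand to CCAAT (the site of NF-Y), TATAAA, the octamer ATTTGCAT (the site of POU2F1), GGTCCG (part of the H4 element that HINFP binds) and AAACACA (the H1 box).
H1-5 (chr6:27867539-27867838, minus strand): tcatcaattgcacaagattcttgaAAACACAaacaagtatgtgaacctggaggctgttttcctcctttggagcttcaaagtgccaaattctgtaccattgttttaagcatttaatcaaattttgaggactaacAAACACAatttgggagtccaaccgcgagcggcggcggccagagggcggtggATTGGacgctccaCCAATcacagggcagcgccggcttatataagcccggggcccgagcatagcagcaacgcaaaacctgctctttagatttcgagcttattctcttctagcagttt
H2BC12 (chr6:27146809-27147108, minus strand): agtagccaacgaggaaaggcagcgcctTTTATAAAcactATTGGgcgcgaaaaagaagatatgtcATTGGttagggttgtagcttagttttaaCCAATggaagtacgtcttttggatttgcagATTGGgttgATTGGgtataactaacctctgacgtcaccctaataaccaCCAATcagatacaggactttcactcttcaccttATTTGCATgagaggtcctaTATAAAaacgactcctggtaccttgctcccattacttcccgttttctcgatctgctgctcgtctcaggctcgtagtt
H3C2 (chr6:26032050-26032349, minus strand): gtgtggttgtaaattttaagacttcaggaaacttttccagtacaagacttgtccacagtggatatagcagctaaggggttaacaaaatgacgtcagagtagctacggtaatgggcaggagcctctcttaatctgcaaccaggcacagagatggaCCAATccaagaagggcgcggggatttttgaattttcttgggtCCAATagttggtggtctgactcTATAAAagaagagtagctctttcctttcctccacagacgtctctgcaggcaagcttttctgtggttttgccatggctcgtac
H4C14 (chr1:149832407-149832706, plus strand): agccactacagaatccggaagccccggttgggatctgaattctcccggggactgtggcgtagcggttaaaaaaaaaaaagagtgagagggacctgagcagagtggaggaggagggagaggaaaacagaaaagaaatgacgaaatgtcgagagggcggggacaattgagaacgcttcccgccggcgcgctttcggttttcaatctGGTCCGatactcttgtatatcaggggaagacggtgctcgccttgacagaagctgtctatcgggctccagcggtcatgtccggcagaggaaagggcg

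Promoters were matched for 64 of the 70 protein-coding members. AAACACA stood in 6 of 6 H1 promoters and in 5.76% of all 27305 promoters in the table. The octamer stood in 11 of 16 H2A and 14 of 18 H2B promoters, against 1.80% of all promoters. Divergent H2A and H2B genes can count the same octamer for both. GGTCCG stood in 12 of 13 H4 promoters, against 11.2% of all. CCAAT stood in 6 of 6 H1, 16 of 16 H2A, 18 of 18 H2B and 11 of 11 H3 promoters but in 3 of 13 H4 promoters, against 35.7% of all. Where a gene has several entries the first was used. For H3C4 that entry is the same window as for H2AC7, with its CCAAT and octamer, so this window is counted in both classes. TATAAA stood in 42 of these 64 promoters and in 11.95% of all. Among 261 matches in these promoters, 3 pairs of different motifs overlapped.

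The stem-loop that SLBP binds is shown in the commonest forms found after the stop codon in GENCODE release 29 transcripts, with the stem in capitals and the loop in lower case.
H2AC6, H2BC9, H3C14 and 14 others: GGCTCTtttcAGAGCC
H4C5, H4C16, H4C8, H4C2 and H4C11: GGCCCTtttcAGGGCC
H2BC4, H2BC5, H2BC7 and H3C8: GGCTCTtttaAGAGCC
H4C14, H4C15 and H4C9: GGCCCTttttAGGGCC
A transcript with at least 20 bases after the stop codon was annotated for 36 members, and 31 of these held the stem-loop, 22 to 67 bases after the stop codon. Anywhere in a transcript, it was found in 0.0339% of all 206694 GENCODE transcripts, those of members included. That share counts transcripts, while the 31 of 36 counts genes with the match after the stop codon. The members with the H4 form that has a loop of T alone, H4C14, H4C15 and H4C9, had a median log2 ratio of −1.55, and those with the commonest form −0.78. The groups hold 3 and 17 genes and overlap. H4C14 and H4C15 have identical coding sequences, so their values are not independent, and H4C9 was at −0.85.

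The transfected gene stood as the labels say: RHCG was at 413 RPKM in the RHCG library and was listed at 0 in the mock library. RPKM is reads per kilobase of transcript, scaled to depth, and the scaling corresponded to about 22100000 reads in the RHCG library and 18900000 in the mock library. A histone message of 500 bases at 1 RPKM thus rested on about 11.0 and 9.47 reads. A listed 0 stands for 1 RPKM or less, no reads, or a gene that was not counted, and such values were set to 1 RPKM. Of the marker genes for other cell types, 2 of 6 for fibroblasts, 1 of 6 for leukocytes (CD68, at 8.89 RPKM in the RHCG library and 15.4 in the mock library) and 0 of 4 for endothelium were listed above 0. Of 6 squamous epithelial markers 5 were, and KRT5 was listed at 0 in both libraries. In the RHCG and mock libraries KRT13 was at 164 and 407 RPKM, KRT15 at 27.3 and 101 RPKM, and TP63 at 14.4 and 26.2 RPKM. SFN was at 180 and 254 RPKM, and KRT14 was higher in the RHCG library, at 4.21 and 3.31 RPKM. PTPRC, PECAM1, CDH5, COL1A2 and DCN, which define the other cell types, were listed at 0 in both libraries. The part of these marker differences in the histone values was not tested.

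Histone messages were lower in the RHCG library in every class. Of the 82 members, 65 were listed above 0 in at least 1 library, and all 65 were below 0 on the log2 scale. The ratio is log2((RHCG + 1)/(mock + 1)) in RPKM, and −1 or less is called lower by 2-fold. By this rule 30 of the 65 were lower and 0 were higher, against 3.3% of all 12857 tested genes called lower and 2.74% called higher. The median of the members was −0.97, and that of all tested genes −0.01. Fewer cells in S phase and less histone RNA per cell cannot be told apart in such bulk libraries. Other scalings of the libraries shifted all genes by 0.0071 (median of ratios) and 0.0141 (trimmed mean) on the log2 scale.

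**Figure D1:**
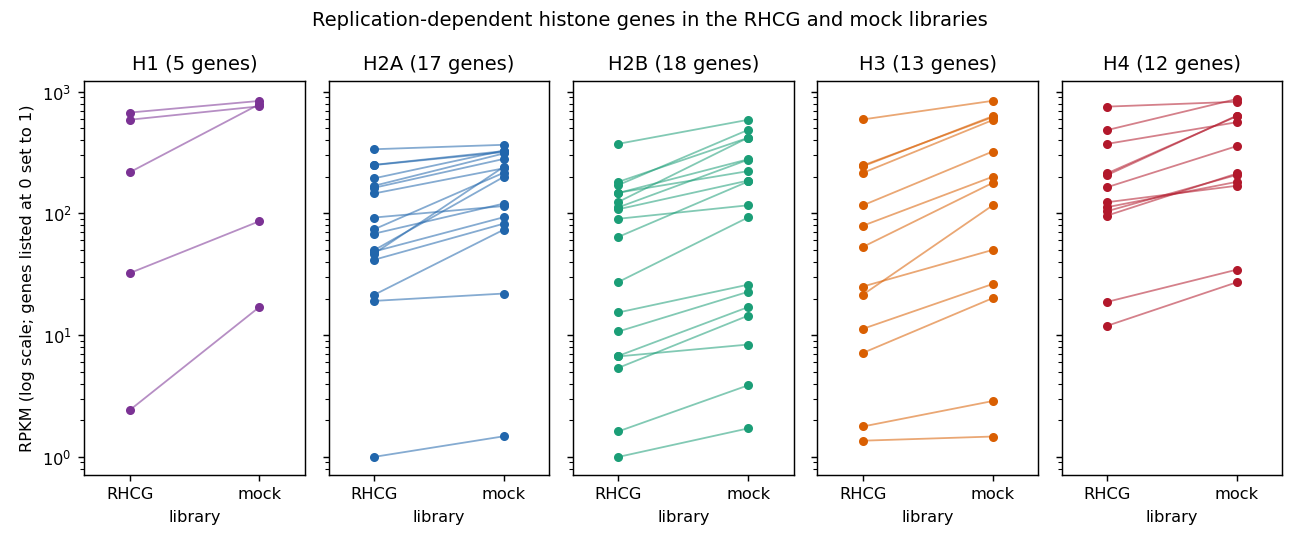
Levels of the 65 tested histone genes, by class. Each line joins a gene's RPKM in the RHCG library (left) to that in the mock library (right) on a log axis, with genes listed at 0 set to 1 RPKM; every line is lower at the RHCG end, but the slopes differ from flat to steep.

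The levels of the 65 members ran between 1 and 754 RPKM in the RHCG library, with a median of 96.2, and between 1.47 and 872 RPKM in the mock library, with a median of 200. Their order was much the same in both libraries (Spearman's rho 0.96 across 65 genes, which share libraries and sequence). Abundance and log2 ratio had a rho of 0.01 over the 65 members, and of 0.20 over the 57 members of at least 10 RPKM. Above a mean of 300 RPKM 8 of 16 members were lower, between 100 and 300 RPKM 11 of 25, between 10 and 100 RPKM 9 of 16, and below 10 RPKM 2 of 8. Of all tested genes that reached 100 RPKM on average, 6.99% were lower, against 46.3% of the 41 members at that level. An approximate 95% exact (Clopper-Pearson) counting interval of the log2 RPKM ratio without the added 1 lay below 0 for 59 of 63 members. The exceptions were H2AC25, H2BC6, H3C3 and H3C8, and such intervals cover counting error only. At the limit of the 2-fold rule stood H4C13 (−1.12), H4C1 (−1.12) and H2BC26 (−1.02) inside, and H4C2 (−0.98), H3C13 (−0.97) and H2AC17 (−0.97) outside.

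The linker histone genes were split between a pair that differed little and 3 that differed widely. H1-4, with H1-2 the main linker histone of many dividing cells, was at 674 RPKM in the RHCG library and 840 in the mock library. H1-2 was at 588 and 758 RPKM in the same order. Their log2 ratios were −0.32 and −0.37. H1-5, another abundant subtype, was at 218 RPKM in the RHCG library and 789 in the mock library, a log2 ratio of −1.85. In the mock library it stood between H1-4 and H1-2, while in the RHCG library it had less than either. H1-3 was at 32.3 RPKM in the RHCG library and 86.3 in the mock library (−1.39). H1-1, the scarcest, was at 2.42 and 17.03 RPKM, on about 40.4 and 244 reads, and its ratio of −2.40 was the lowest of all 65 members. The testis gene H1-6 was listed at 0 in both. The coding sequences of H1 genes are the least alike of the classes, at most 77.4% identical to the nearest relative, and 100% of their 50-base windows occurred in no other member.

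H2A genes had the smallest differences of the core classes, with 4 of 17 lower and a median of −0.78. H2AC6, the most abundant, was at 337 RPKM in the RHCG library and 366 in the mock library, a log2 ratio of −0.12. The identical HIST2 copies H2AC18 and H2AC19 were at 251 and 250 RPKM in the RHCG library and at 325 and 319 RPKM in the mock library, with ratios of −0.37 and −0.35. H2AC8 was at 194 and 329 RPKM in the same order (−0.76). At the other end H2AC12 was at 46.8 RPKM in the RHCG library and 242 in the mock library, a ratio of −2.34. It ranked 13 in its class in the RHCG library and 7 in the mock library. H2AC4 was at 49.8 and 200 RPKM (−1.98), H2AC15 at 21.4 and 73.6 RPKM (−1.73), and H2AC14 at 74.0 and 216 RPKM (−1.53). These 4 lower genes all lie in HIST1. Testis-specific H2AC1 was listed at 0 in both libraries, and the pseudogene H2AC2P was listed at 0 in the RHCG library and at 1.48 RPKM in the mock library.

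Among H2B genes 9 of 18 were lower and the median was −0.97. H2BC4 led the class at 373 RPKM in the RHCG library and 588 in the mock library, a log2 ratio of −0.65. The genes next in abundance differed more. H2BC13 was at 171 RPKM in the RHCG library and 486 in the mock library (−1.50), H2BC8 at 182 and 418 RPKM (−1.20), and H2BC9 at 125 and 420 RPKM, whose ratio of −1.74 was the lowest of the class. The highest ratio, −0.29, was that of H2BC6 at 6.69 and 8.37 RPKM, a gene resting on about 69.4 and 74.5 reads. H2BC12, which stood at 90.4 and 116.7 RPKM, followed with −0.36. The testis gene H2BC1 and H2BC12L, the chromosome 21 copy whose coding sequence is 99.0% identical to that of H2BC12, were listed at 0 in both libraries.

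The H3 genes had the largest share of lower members, 9 of 13, and a median of −1.33. Their most abundant member was among the 4 within 2-fold, with H3C13, H3C3 and H3C8: H3C7 was at 592 RPKM in the RHCG library and 842 in the mock library, a log2 ratio of −0.51. H3C15 and H3C14, with identical coding sequences, were at 244 and 248 RPKM in the RHCG library and at 629 and 617 RPKM in the mock library (−1.36 and −1.31). H3C2 was at 215 and 585 RPKM in the RHCG and mock libraries (−1.44). H3C12 had the lowest ratio of the class, −2.38, at 21.5 RPKM in the RHCG library and 116.4 in the mock library. The highest, −0.07, belonged to H3C8, at 1.36 and 1.47 RPKM and about 14.9 and 13.8 reads, too few to tell the libraries apart. H3C13, H3C14 and H3C15 on chromosome 1 encode the H3.2 protein, and the 10 protein-coding members on chromosome 6 encode H3.1. The H3.2 genes summed to 517 RPKM in the RHCG library and 1296 in the mock library, and the H3.1 genes to 1099 and 2294 RPKM, log2 ratios of the sums of −1.33 and −1.06. Their medians were close, −1.31 for H3.2 (2 of 3 lower) and −1.35 for H3.1 (7 of 10 lower). H3C7 alone held 592 of the 1099 RPKM of H3.1 in the RHCG library.

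H4 genes encode nearly all the same protein, and 5 of 12 were lower, with a median of −0.92. H4C3 was at 754 RPKM in the RHCG library and 827 in the mock library, a log2 ratio of −0.13. It was the most abundant of all 82 members in the RHCG library. H4C5, the most abundant in the mock library, was at 484 RPKM in the RHCG library and 872 in the mock library (−0.85). H4C16, which lies alone on chromosome 12, was at 373 and 562 RPKM in the same order (−0.59). The HIST2 copies H4C15 and H4C14, with identical coding sequences, were at 207 and 214 RPKM in the RHCG library and 638 and 630 RPKM in the mock library. Their ratios of −1.62 and −1.55 were the lowest of the class. H4C4, H4C6 and H4C7 were listed at 0 in both libraries.

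**Figure D2:**
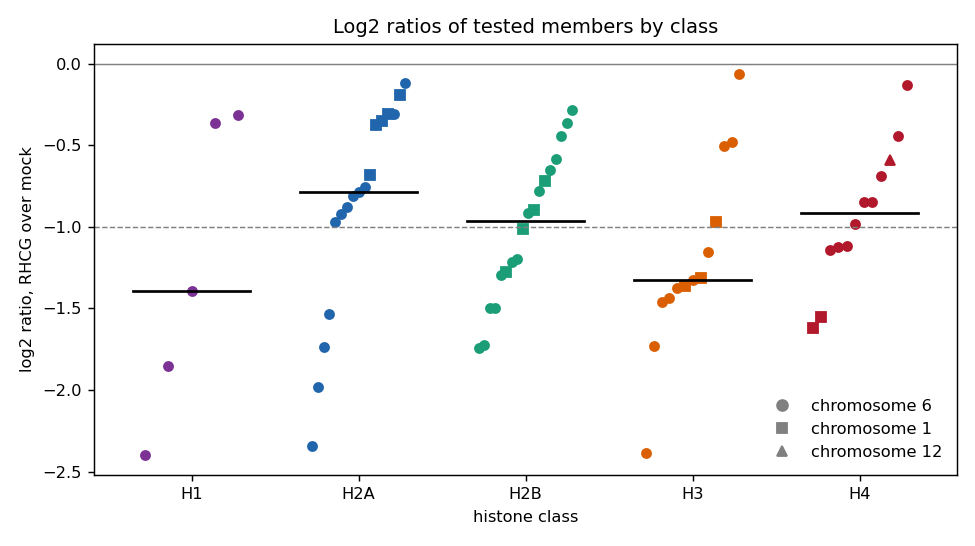
Log2 ratio of RHCG over mock for each of the 65 tested members by class. Symbols give the chromosome, black bars the class median, and the dashed line the 2-fold rule; medians run from −0.78 for H2A to −1.39 for H1, and no point reaches 0.

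All members together summed to 9380 RPKM in the RHCG library and 17513 in the mock library. Summed RPKM of H3 genes was 1617 in the RHCG library and 3592 in the mock library, 45.0% of the mock value. H2B genes summed to 1603 and 3369 RPKM (47.6%), and H4 genes to 2668 and 4724 RPKM (56.5%). H2A genes summed to 1976 RPKM in the RHCG library and 3336 in the mock library (59.2%), and H1 genes to 1516 and 2492 RPKM (60.8%). On the log2 scale the ratios of the sums were −1.15 for H3, −1.07 for H2B, −0.82 for H4, −0.76 for H2A and −0.72 for H1. H2A, H2B and H3 lay close together in the mock library, while in the RHCG library H2A was above H2B and H3. Of the histone total, H2A made up 21.1% in the RHCG library and 19.1% in the mock library, H3 17.2% and 20.5%, H2B 17.1% and 19.2%, H4 28.4% and 27.0%, and H1 16.2% and 14.2%. The H1 sum per unit of the core sum was 0.193 in the RHCG library and 0.166 in the mock library.

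How far a class rested on few genes differed between the classes. The 4 most abundant members held 99.8% of the H1 sum in the RHCG library and 99.3% in the mock library, 80.3% and 74.4% of the H3 sum, and 68.2% and 61.4% of the H4 sum. For H2B the shares were 53.1% in the RHCG library and 56.7% in the mock library, and for H2A 52.2% and 40.1%. Of those 4 members, 0 were lower by 2-fold in H2A, 1 in H4, 2 in H1, and 3 each in H2B and H3. They include the identical coding pairs H2AC18 with H2AC19 and H3C15 with H3C14, but H4C15 without its copy H4C14.

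**Figure D3:**
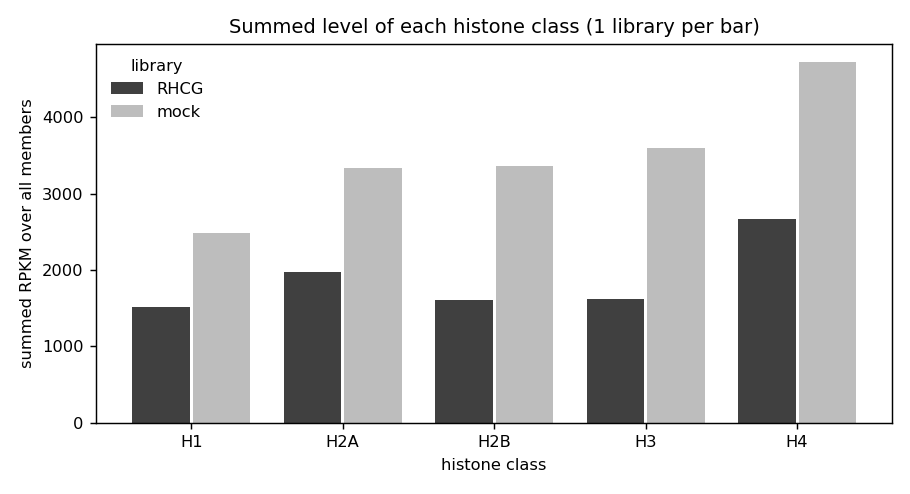
Summed RPKM over all members of each histone class in the RHCG library (dark) and the mock library (light), 1 library per bar. The RHCG bars reach between 45.0% (H3) and 60.8% (H1) of the mock bars.

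The clusters on chromosomes 6 and 1 were alike in their medians and differed in which classes had the larger differences. On chromosome 6, 24 of 50 tested members were lower with a median of −0.98, and on chromosome 1 6 of 14 with a median of −0.93. Summed RPKM was 7276 in the RHCG library and 13301 in the mock library on chromosome 6, and 1730 and 3650 RPKM on chromosome 1, log2 ratios of −0.87 and −1.08. On chromosome 1 the H4 sum was 421 RPKM in the RHCG library and 1268 in the mock library (−1.59), and the H3 sum 517 and 1296 RPKM (−1.33). The 5 H2A genes there summed to 758 and 1016 RPKM (−0.42), and 0 of them were lower. The H4 sum there came only from H4C14 and H4C15, which have identical coding sequences. Most of the H3 and H2A sums came from the identical coding pairs H3C14 with H3C15 and H2AC18 with H2AC19. The values within such a pair are not independent. On chromosome 6 the order was otherwise: H2B sums were 1567 and 3299 RPKM (−1.07), H2A sums were 1219 and 2320 RPKM (−0.93), H4 sums 1875 and 2895 RPKM (−0.63) and H3 sums 1100 and 2295 RPKM (−1.06). The H2B genes of chromosome 1 had low sums, 35.1 and 69.1 RPKM (−0.98). The most abundant of them, H2BC21, was at 15.4 RPKM in the RHCG library and 26.0 in the mock library. A length of 2194 bases was taken for it here, and RPKM divides by length. The length behind its RPKM is not given in the sources used here.

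Within HIST1, the 2 widest gaps between members divide it into stretches. The first, between H2AC1 and H3C9P, had 13 of 29 tested members lower and a median of −0.85. The short second stretch, between H2BC11 and H2AC12, had 1 of 5 lower and a median of −0.88. The third, between H4C10P and H2BC17, had 10 of 16 lower and a median of −1.39. Summed RPKM in the third stretch was 1444 in the RHCG library and 3539 in the mock library (−1.29), and in the first 5359 and 8779 RPKM (−0.71). The abundant genes with small differences on this chromosome, H4C3, H1-2, H1-4, H2AC6 and H3C7, all lie in the first stretch, and H1-5 and H3C12 in the third. The division is not clean. The first stretch also holds H1-1 (−2.40), H2AC4 (−1.98), H2BC9 (−1.74) and H3C2 (−1.44), and the third holds H4C12 (−0.45).

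The non-histone genes around these loci did not share the difference. For each member the nearest 25 non-histone protein-coding genes on each side with a mean of at least 3 RPKM were taken. Around HIST1 these were 58 genes with a median log2 ratio of −0.03, of which 2 (3.45%) were lower. Around HIST2 the 50 neighbours had a median of 0.12 and 1 was lower, and around HIST3 0.05 with 0 lower. The 50 around H4C16 on chromosome 12 had a median of 0.48. With the median of its neighbours taken off each member, 64 of 65 members remained below 0, 33 were lower by 2-fold, and the median was −1.02. The exception was H3C8. Non-histone genes inside the first stretch of HIST1 included TRIM38 and the iron regulator HFE. TRIM38 was at 6.69 RPKM in the RHCG library and 8.92 in the mock library, and HFE at 4.80 and 8.99 RPKM (−0.79).

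**Figure D4:**
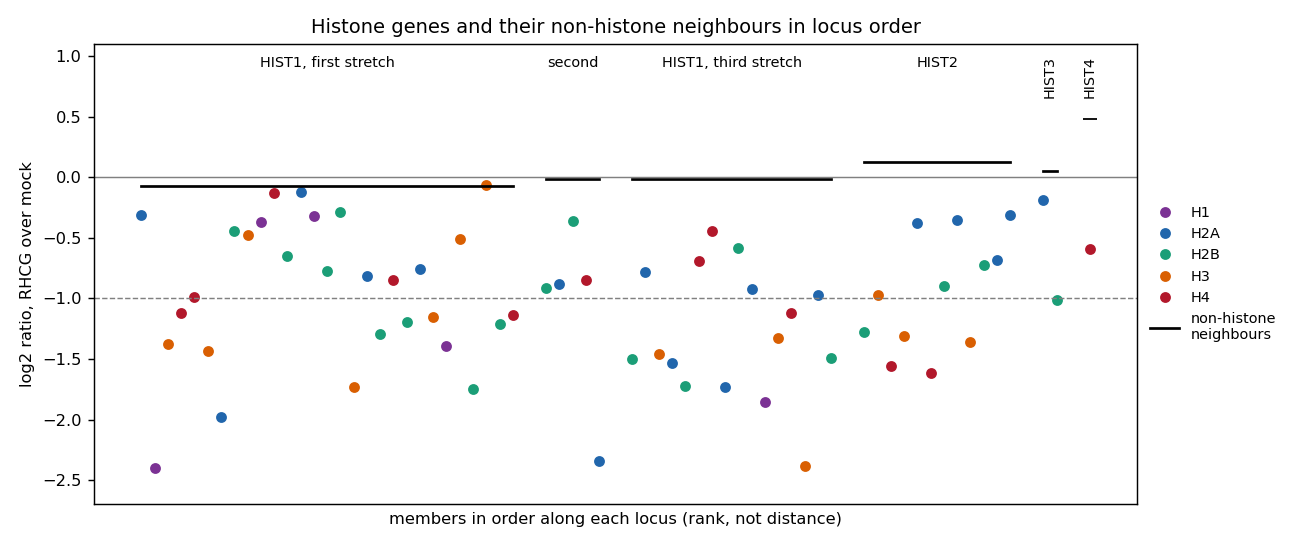
Log2 ratio of RHCG over mock for the 65 tested members in their order along each locus (rank, not distance), coloured by class. Black lines give the median of the nearest 50 non-histone genes, which lies near 0 at HIST1, HIST2 and HIST3 and at 0.48 at HIST4 (H4C16), with 64 of 65 members below their line.

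Divergent H2A and H2B neighbours often differed in their log2 ratios. A pair was an H2A and an H2B gene on opposite strands with start sites less than 1000 bases apart, and 12 such pairs had both genes tested, 194 to 288 bases apart, 1 of them with the pseudogene H2BC20P. The H2B gene had the lower log2 ratio in 10 of 12 pairs. The genes of a pair lay within 0.5 of each other in 5 pairs, and the median difference was 0.53. Across the 12 pairs, Spearman's rho between the H2A and H2B ratios was 0.01. This rho includes 2 pairs of the reverse order and was not computed without them. Among the other 10 pairs, H2AC6 and H2BC4 (−0.12 and −0.65) had the highest ratio of their class, and H2AC14 and H2BC14 the lowest. Both exceptions to the order were wide. H2AC12 (−2.34) stands beside H2BC12 (−0.36), whose promoter is printed above and reaches across the 248 bases between them. H2AC15 (−1.73) stands beside H2BC15 (−0.59), at 148 RPKM in the RHCG library and 223 in the mock library. H2AC11 and H2BC11 differed least, at −0.88 and −0.92. H2AC14 (−1.53) and H2BC14, at 27.4 RPKM in the RHCG library and 92.8 in the mock library (−1.72), were the only pair with both genes lower.

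**Figure D5:**
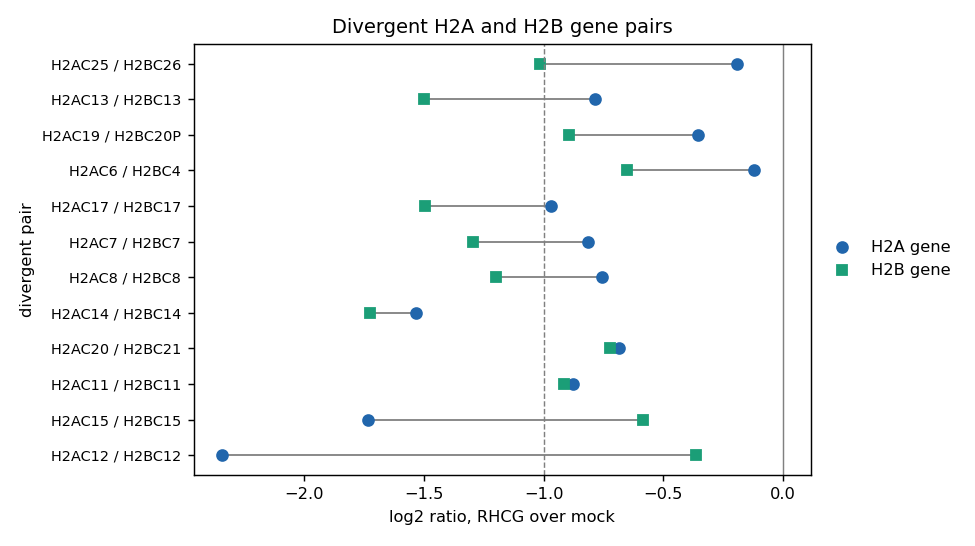
Log2 ratio of RHCG over mock for the 12 divergent pairs, with the H2A gene as a circle and the H2B gene as a square. In 10 pairs the square lies left of the circle; H2AC12 and H2AC15 reverse this by more than 1 on the log2 scale.

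Copies share reads, so single-gene values are uncertain. Sums can move too where copies differ in length, since RPKM divides by length. If reads matching several copies were counted at each copy, a sum would hold them more than once. Coding sequences of members had a median identity to others of their class of 72.5% for H1, 83.3% for H4, 85.1% for H2A, 85.5% for H3 and 89.6% for H2B. The identical coding pairs were H2AC18 with H2AC19, H3C14 with H3C15, H4C14 with H4C15, and H4C11 with H4C12. The last pair was at 112.6 and 124 RPKM in the RHCG library and 182 and 169 RPKM in the mock library, ratios of −0.69 and −0.45. How the authors placed reads that match several copies is not given in the sources used here. In 45 tested members at least 80% of 50-base windows of the coding sequence were found in no other member's transcripts. These had a median log2 ratio of −1.12 with 24 lower, against −0.75 with 6 lower for the 18 members with fewer unique windows. The 4 H2A genes called lower divide in this respect: H2AC4, H2AC12 and H2AC15 are among the 45, while H2AC14 shares most of its windows. The divergent H2B partners of H2AC12 and H2AC15 are not among the 45. Of the windows of H2BC12 25.9% were unique, and of those of H2BC15 73.5%.

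Median log2 ratios of members with and without an element lay close together, with the widest gap for the H1 box. Members with AAACACA, 5 of them tested H1 genes, had a median of −1.34 (8 genes, 5 lower), and those without it −0.92 (50 genes, 21 lower). Those 8 ran from −2.40 (H1-1) to −0.32 (H1-4) and include H3C14 and H3C15, which have identical coding sequences. CCAAT gave −0.95 with and −0.92 without. Members with the octamer had a median log2 ratio of −0.92 (24 genes, 10 lower), and those without it −0.98 (34 genes, 16 lower). Those with TATAAA had −0.90 (38 genes) and those without −1.08 (20 genes). With GGTCCG, mainly H4 genes, the median was −0.85, and without it −0.97. Matches are letters in a window and say nothing of binding.

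Genes that act on histone supply were grouped by role, and each count is to be read beside the 3.3% of all tested genes called lower. No test of a difference between roles was possible. The lists overlap, so some genes count in more than 1. E2F1, CCNE2, SLBP and PCNA are also in the S phase list, and CENPA is in the lists for mitosis and for histone variants. The activators and regulators of histone transcription had 3 of 13 lower and a median of 0.03. These 3 were the S phase kinase gene CDK2 (20.03 RPKM in the RHCG library and 45.6 in the mock library), the transcription factor gene E2F1 (11.4 and 28.9 RPKM), and CCNE2, a cyclin of CDK2, which was listed at 0 in the RHCG library and at 3.50 RPKM in the mock library. NPAT, the coactivator specific to histone genes, was at 2.19 and 2.002 RPKM, and HINFP at 8.09 and 6.11 RPKM. In the 3′ processing list 1 of 19 tested genes was lower, SRRT (36.2 and 76.6 RPKM), with a median of −0.10. SLBP itself was at 34.7 RPKM in the RHCG library and 39.8 in the mock library (−0.19). NPAT, HINFP and SLBP were named for their role after their values were seen. Of 16 genes for histone mRNA decay and translation 0 passed 2-fold, and the median was 0.02, with LSM7 at 77.1 and 76.6 RPKM and LSM4 at 67.6 and 83.7 RPKM.

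Chaperones and assembly factors had 3 of 25 lower and a median of −0.26. They were ASF1B (11.7 RPKM in the RHCG library and 35.9 in the mock library), a chaperone that passes H3 and H4 on, CHAF1A (21.8 and 52.0 RPKM), the large subunit of the assembly factor CAF-1, and TONSL (7.20 and 17.9 RPKM), which reads newly made H4. In the S phase list 15 of 27 genes were lower and the median was −1.26, and the lower genes included FEN1 (−2.22), MCM5 (−2.09), MCM2 (−2.06) and TYMS (−2.02). The list for G2 and mitosis had 2 of 25 lower, KIF20A (−1.59) and CDK1 (−1.10), and a median of −0.39. The part of cell cycle position in the histone values was not tested. Histone variants made outside S phase had 1 of 12 lower and a median of −0.33. The lower gene was MACROH2A2, a macroH2A variant, at 1.26 RPKM in the RHCG library and 15.6 in the mock library (−2.87).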

How the data were processed

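The authors deposited 1 table per library whose values, headed RPKM, are log2 values of RPKM with no pseudocount, as judged from the values. The submitters' processing notes name hg19 and bedtools 2.25.0. Which aligner and counter made the values is not given in the sources used here. Values were unlogged and the 112 rows with a copy suffix summed to genes (no member had such a row). Genes listed at 0 were set to 1 RPKM. Tested genes had a mean above 1 RPKM. Entrez IDs were named from RefSeq (GRCh38.p14), which was used for names, gene types, lengths, order and promoters. Of 84 matching symbols, 2 were not in the tables. Depth came from small RNA genes, whose value times length fell on multiples of 1 constant (within 0.01 reads for 37.5% and 25.5% of values under 20 reads in the RHCG and mock libraries); counts could not be recovered. Approximate reads used the RefSeq span or, above 1000 bases, the shortest GENCODE transcript.

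Members and lists were chosen with earlier results of these data known. Named members were, per class, the 4 most abundant and those with the lowest and highest log2 ratio, and, per list, up to 4 called genes or the 2 most abundant. The design, written for a table of either kind, used no test. Other pseudocounts, floors, filters, scalings, folds, neighbour shifts and sums were tried. The ratio was tested on simulated data with a seed of 23. Other members are named where a pair, copy or threshold turns on them, after their values were seen. A result among the histone variants made outside S phase is not reported here. Software was Biopython 1.88, matplotlib 3.10.9, scipy 1.17.1, pandas 2.3.3, numpy 2.4.6 and Python 3.11.15.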

Additional observations from a re-analysis of the deposited data

How the results depend on the processing

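No paired analysis was possible because each group is a single library, for which reason no replicate was omitted in turn either. Of 85 values for counts, medians and sums under alternatives, 64 stayed within 1.5 times (counts) or their approximate counting error, and all 65 log2 values were below 0. The 30 lower genes became 49 with a 1.5-fold rule, which loosens it by construction, and 30 to 33 otherwise; 0 were higher throughout. The members' median of −0.97 was −0.78 with no filter, which adds genes listed at 0 in both libraries. With the shift of 50 non-histone neighbours removed, the sums were −0.65 for H1, −1.08 for H3, −0.80 for chromosome 6 and −1.20 for chromosome 1. Trimmed mean scaling put chromosome 6 at −0.88. Medians of members in place of sums were −1.39 for H1, −0.78 for H2A, −0.97 for H2B, −1.33 for H3, −0.92 for H4, −0.98 for chromosome 6 and −0.93 for chromosome 1. Without the most abundant member the sums were −0.97 for H1, −0.86 for H2A, −1.18 for H2B, −1.42 for H3, −1.03 for H4, −0.94 for chromosome 6 and −1.02 for chromosome 1. The order of the classes thus depends on the summary: H1 has the smallest difference by sum and the largest by median. Among named genes 242 values moved by no more than counting error and 23 by more, and 2 genes changed side of the 2-fold rule, H4C16 (−1.07 with the neighbour shift removed) and COL3A1 (−1.18 with genes listed at 0 set to 0 RPKM), while no called value turned its sign. The counting interval, taken on the ratio without the added 1, included 0 for H2AC25, H2BC6, H3C3 and H3C8.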
